A study of Sus scrofa with 48 samples.

Results

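The 8 genes described here are names of the monocyte and macrophage lineage that were followed in pig blood, namely CHIT1, CHI3L1, CD5L, CD163, CD14, CD68, CSF1R and LYZ. They were taken as the spots whose gene name in the scanner files, in upper case, equals one of these names and which the authors kept in their table of log2 values. This gave 20 of the 23 spots so named, and the 3 spots left out all carry the name CD5L. The 8 genes stood among 10946 genes with a name, measured by 19765 of the 37113 spots kept. CHIT1 was chosen by its measured difference between the lines in earlier results of these data, and CD5L was chosen by its difference between the diets, so that these 2 differences are given as descriptions with no test.

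The blood came from 48 pigs aged 132 days, castrated males of the purebred French Large White breed, with 1 array per pig. They belonged to 2 lines from the eighth generation of a divergent selection on residual feed intake (RFI), which is the feed eaten beyond what growth and maintenance call for. Low RFI pigs are the more efficient line. Within each line, 12 pigs were fed a high fat and high fibre (HF) diet, in which wheat straw and plant oils replaced a part of the cereals, and 12 pigs a low fat and low fibre (LF) diet. The 4 groups were therefore low RFI HF, low RFI LF, high RFI HF and high RFI LF. Blood was taken at slaughter after a meal, and RNA was extracted from whole blood, without sorting of cells. The arrays lay on 6 slides scanned on 3 days, with 2 arrays of each group on every slide.

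Monocytes are the blood precursors of many tissue macrophages, and both take up microbes and dying cells and digest them in lysosomes. CD14 presents bacterial lipopolysaccharide to the Toll-like receptor complex, CSF1R is the receptor for the growth factor that keeps monocytes and macrophages alive, CD163 is the scavenger receptor for haemoglobin bound to haptoglobin, CD68 is a glycoprotein of the lysosomal membrane, and LYZ is lysozyme, which cuts bacterial cell walls. CHIT1 encodes chitotriosidase, a chitin-degrading enzyme secreted by activated and lipid-laden macrophages. CHI3L1 is its relative that binds chitin without cutting it. CD5L is a secreted scavenger-receptor-like protein of tissue macrophages, known as a target of the liver X receptors. In whole blood, fewer cells of a type and less RNA per cell cannot be told apart.

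Each gene is read through DNA probes of 60 bases, and the probes shown here are those by which CHIT1, its relative, CD5L and 3 general monocyte genes can be recognised. They are copied from the scanner files, 5′ to 3′, all in lower case because no part is singled out. The CHIT1 probe is the only spot of that gene. The CD5L probe is one of the 3 spots that the authors did not keep, and the CD5L value is the mean of 2 other spots. The probe shown was well above background on only 10 of 48 arrays. The CD163 sequence is carried by 2 separate spots of the array.
CHIT1 probe A_72_P075026: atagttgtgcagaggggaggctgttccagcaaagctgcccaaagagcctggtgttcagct
CHI3L1 probe A_72_P511075: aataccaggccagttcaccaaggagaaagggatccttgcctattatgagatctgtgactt
CD5L probe A_72_P529278: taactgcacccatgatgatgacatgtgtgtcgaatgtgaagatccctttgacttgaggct
CD163 probe A_72_P624895: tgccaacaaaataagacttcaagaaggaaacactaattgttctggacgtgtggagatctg
CD14 probe A_72_P050971: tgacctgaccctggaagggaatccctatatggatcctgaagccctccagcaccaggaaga
CSF1R probe O6058: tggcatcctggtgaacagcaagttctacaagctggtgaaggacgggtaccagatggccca
By the files, the CHIT1 probe starts at base 1312 of its transcript and the CHI3L1 probe at base 911 of its own. Although the proteins are related, no probes of 2 different genes among the 8 shared more than 11 bases in a row. In the RefSeq table of the pig assembly Sscrofa11.1, CHIT1 and CHI3L1 are next to each other among the protein-coding genes, and the next gene on the other side of CHI3L1 is MYBPH.

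The signals were checked first, which shows that the genes were detected but not in which cells. CD14, CD163, CSF1R, CD68, LYZ, CHI3L1 and CHIT1 were called well above background on 48 of 48 arrays at each of their spots kept. No spot was saturated. The median signal over local background was 7.84 for CHIT1 and 3.05 for CD68, and it was 104 for the CD14 probe shown above. CD5L was dim. Its 2 spots kept had a median signal of 2.31 and 2.35 times the local background, and they were well above background on 42 and 46 of 48 arrays. The 2 CD163 spots of identical sequence differed by 0.07 on average, with an SD of 0.21 over the 48 pigs, against an SD of 0.50 between pigs within groups. Spots of 1 gene followed each other over the pigs, after removal of the group means, with a Pearson's r of 0.86 for the CHI3L1 pair, 0.93 for the CD5L pair, at least 0.82 for CD14, at least 0.94 for LYZ and between 0.61 and 0.97 for CD163. A gene value below is the mean of its spots on the log2 scale with the array median at 0, and differences are on that log2 scale.

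CHIT1 was lower in the blood of low RFI pigs than in that of high RFI pigs under both diets, the difference by which it was chosen. The CHIT1 value in low RFI HF pigs ran from -1.62 to 0.08 with a median of -1.11, and in low RFI LF pigs from -1.46 to -0.40 with a median of -0.96. In high RFI HF pigs it ran from -0.93 to 2.32 with a median of -0.21, and in high RFI LF pigs from -1.10 to 0.62 with a median of 0.01. The ranges overlapped, but 23 of 24 low RFI pigs lay under the median of the high RFI pigs. The mean was -0.97 ± 0.42 (SD, n = 24) over the low RFI pigs and 0.09 ± 0.81 (SD, n = 24) over the high RFI pigs, a difference of -1.07 (SE 0.18) or 2.10-fold. It was -1.20 under the HF diet and -0.94 under the LF diet. Within each slide, where 4 pigs of a line met 4 of the other, the difference was below 0 on 6 of 6 slides and ran from -1.62 to -0.30.

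High RFI pigs also spread more widely in CHIT1, most of all under the HF diet, where the SD was 0.96 against 0.32 to 0.64 in the other groups. In the high RFI HF group 7 pigs lay between -0.93 and -0.16 and 5 pigs between 0.71 and 2.32. The highest value, 2.32, came from high RFI HF replicate 2, which also had the highest CD163 value of all pigs, 1.86. Without any 1 pig the CHIT1 line difference stayed between -1.12 and -0.97.

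**Figure D1:**
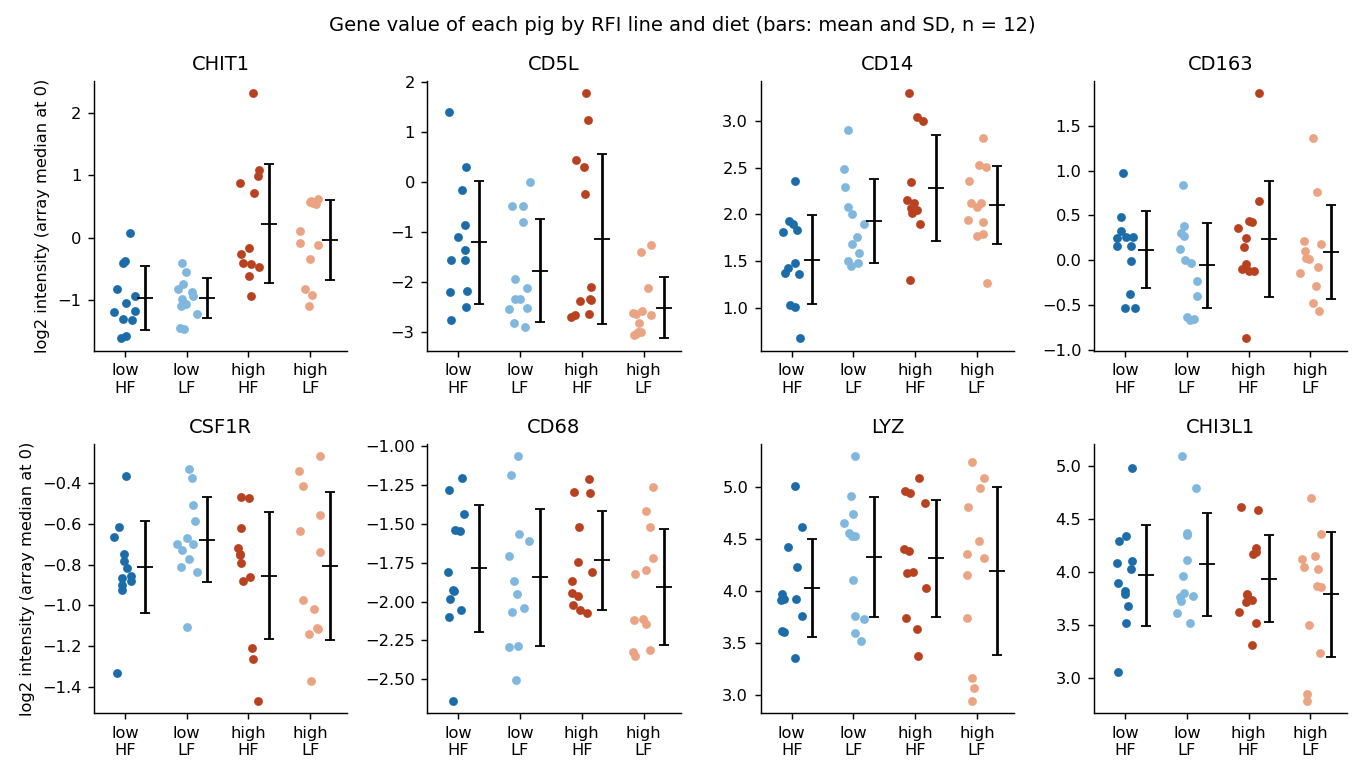
Gene value of each pig (log2 intensity with the array median at 0, vertical axis, a separate scale for each gene) by RFI line and diet for the 8 genes. Each point is a pig and the black bar is the mean with the SD of 12 pigs. CHIT1 is lower in both low RFI groups, CD5L is highest in some HF pigs of both lines, and the groups of the other genes overlap.

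The diet, which played no part in the choice of CHIT1, left no difference that passed the test. CHIT1 averaged -0.38 ± 0.97 (SD, n = 24) over the HF pigs and -0.50 ± 0.69 (SD, n = 24) over the LF pigs, a difference of 0.13 (95% interval -0.24 to 0.49) with an adjusted P-value of 0.9995 by the moderated test of limma, corrected by BH for all genes. The diet difference of CHIT1 was -0.01 in low RFI and 0.26 in high RFI pigs, and the line by diet interaction was -0.27 (95% interval -0.998 to 0.46, adjusted P-value 0.88).

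CHI3L1, the relative and neighbour of CHIT1, did not show a line difference that passed the test. The CHI3L1 value was 4.02 ± 0.47 (SD, n = 24) over the low RFI pigs and 3.86 ± 0.50 (SD, n = 24) over the high RFI pigs, a difference of 0.15 (95% interval -0.12 to 0.43, adjusted P-value 0.78 by limma). CHI3L1 was lower in low RFI pigs on only 2 of 6 slides. Between the diets the difference was 0.02 (95% interval -0.26 to 0.30). The 2 genes did not vary together from pig to pig in a way that passed the test, with a Pearson's r of -0.19 and a Spearman's rho of -0.19 over 48 pigs (permutation P-values of 0.21 and 0.20). The r was 0.35 within the low RFI line and -0.46 within the high RFI line, and this difference was not tested.

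Of the general monocyte genes, CD14 alone passed the test for the line. It was 1 of the 7 genes other than CHIT1, beside 1.64% of the 10946 genes called lower and 1.65% called higher in low RFI pigs at an adjusted P-value under 0.05. The CD14 value in low RFI HF pigs ran from 0.67 to 2.36 with a median of 1.45, and in low RFI LF pigs from 1.45 to 2.91 with a median of 1.83. In high RFI HF pigs it ran from 1.30 to 3.30 and in high RFI LF pigs from 1.26 to 2.82, with a median of 2.10 in both. CD14 averaged 1.72 ± 0.50 (SD, n = 24) over the low RFI pigs and 2.19 ± 0.49 (SD, n = 24) over the high RFI pigs. The difference was -0.47 (SE 0.13) or 1.39-fold, with an adjusted P-value of 0.037 by limma. Of the low RFI pigs, 20 of 24 lay under the high RFI median, and the difference was below 0 on 5 of 6 slides, from -0.88 to 0.13. The call is near its threshold and was lost without any one of 16 pigs, with adjusted P-values of up to 0.063.

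The 3 CD14 probes each gave a lower value in low RFI pigs. In the fit over all spots, the probe shown above differed by -0.50 (adjusted P-value 0.029) and a second by -0.49 (adjusted P-value 0.042), whereas the third, with -0.42, had an adjusted P-value of 0.10 by the same limma test.

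**Figure D2:**
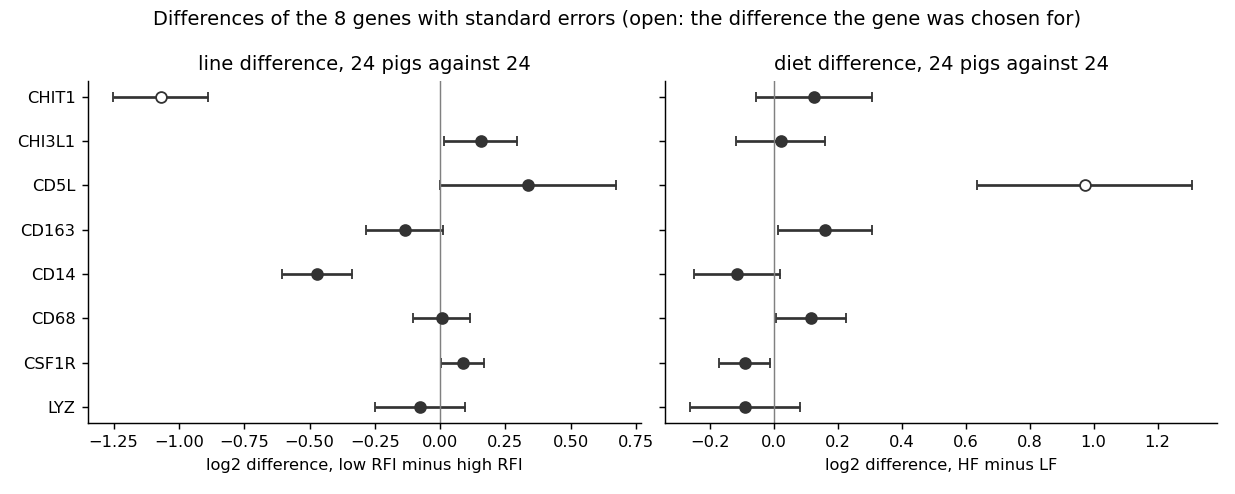
Differences of the 8 genes on the log2 scale between lines (left, low RFI minus high RFI) and diets (right, HF minus LF), with standard errors, 24 pigs against 24. Open circles mark CHIT1 for the line (-1.07) and CD5L for the diet (0.97), the differences that these genes were chosen for, and of the filled circles only CD14 for the line (-0.47) passed the test.

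CD163, CD68, CSF1R and LYZ had line differences between -0.14 and 0.09, and none passed the test. The scavenger receptor CD163 averaged 0.03 ± 0.45 (SD, n = 24) over the low RFI pigs and 0.16 ± 0.58 (SD, n = 24) over the high RFI pigs, a difference of -0.14 (95% interval -0.43 to 0.16). For CSF1R the difference was 0.09 (95% interval -0.08 to 0.25). The lysosomal CD68 differed by 0.01 (95% interval -0.21 to 0.22). LYZ differed by -0.08 (95% interval -0.42 to 0.27). The lowest adjusted P-value of these 4 genes was 0.80 by limma. The median line difference over all 10946 genes was 0.03.

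CD5L was higher in pigs fed the HF diet, the difference by which it was chosen. The CD5L value in low RFI HF pigs ran from -2.77 to 1.40 with a median of -1.46, and in low RFI LF pigs from -2.90 to 0.01 with a median of -2.24. In high RFI HF pigs it ran from -2.70 to 1.78 with a median of -2.22, and in high RFI LF pigs from -3.07 to -1.25 with a median of -2.65. All 4 ranges overlapped. The mean was -1.17 ± 1.46 (SD, n = 24) over the HF pigs and -2.14 ± 0.92 (SD, n = 24) over the LF pigs, a difference of 0.97 (SE 0.34), and 20 of 24 HF pigs lay over the LF median. The difference was above 0 on 6 of 6 slides, from 0.07 to 1.59, and each of the 2 probes gave it, with 1.16 and 0.78. The size depends on the processing. It was 1.37 with the processed signal over the 75th percentile and 0.78 with normexp background correction and quantile normalization.

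The HF mean of CD5L rested on a part of the pigs. In high RFI HF pigs, 7 lay between -2.70 and -2.10 and 5 lay between -0.23 and 1.78. The highest value, 1.78, was that of high RFI HF replicate 5. In low RFI HF pigs 2 lay above 0, at 0.31 and 1.40. The diet difference was 0.56 in low RFI and 1.38 in high RFI pigs, and the interaction of -0.82 (95% interval -2.17 to 0.54) had an adjusted P-value of 0.88 by limma. Over all genes the lowest adjusted P-value of the interaction was 0.88, so that 0% were called, while 2.33% of genes had an unadjusted P-value under 0.05.

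Between the lines, CD5L showed no difference that passed the test. It averaged -1.49 ± 1.15 (SD, n = 24) over the low RFI pigs and -1.83 ± 1.44 (SD, n = 24) over the high RFI pigs, a difference of 0.34 (95% interval -0.34 to 1.01, adjusted P-value 0.82 by limma). Its direction was that of a higher value in low RFI pigs, on 5 of 6 slides, opposite to that of CHIT1.

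None of the other 7 genes passed the test for the diet, and at an adjusted P-value under 0.05 the share over all genes was 0%, with 1.94% at an unadjusted P-value under 0.05. CD163 had the largest diet difference among them, 0.16 (95% interval -0.13 to 0.46). CD68 differed by 0.12 (95% interval -0.10 to 0.33), CD14 by -0.12 (95% interval -0.39 to 0.15), CSF1R by -0.09 (95% interval -0.25 to 0.07) and LYZ by -0.09 (95% interval -0.44 to 0.26). All 7 had unadjusted P-values above 0.05.

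CD14 was the only one of the 8 genes with an unadjusted interaction P-value under 0.05. In the low RFI line the CD14 mean was 1.52 ± 0.48 (SD, n = 12) under the HF and 1.93 ± 0.45 (SD, n = 12) under the LF diet. In the high RFI line it was 2.28 ± 0.56 (SD, n = 12) under the HF and 2.10 ± 0.42 (SD, n = 12) under the LF diet. The diet difference was therefore -0.41 in low RFI and 0.18 in high RFI pigs. The interaction of -0.59 (SE 0.27) had a P-value of 0.033 and an adjusted P-value of 0.88 by limma, which does not pass the correction. The line difference of CD14 was -0.77 under the HF diet (adjusted P-value 0.032, beside 0.42% of genes called lower there) and -0.18 under the LF diet (adjusted P-value 0.85, beside 0.164% called lower there).

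**Figure D3:**
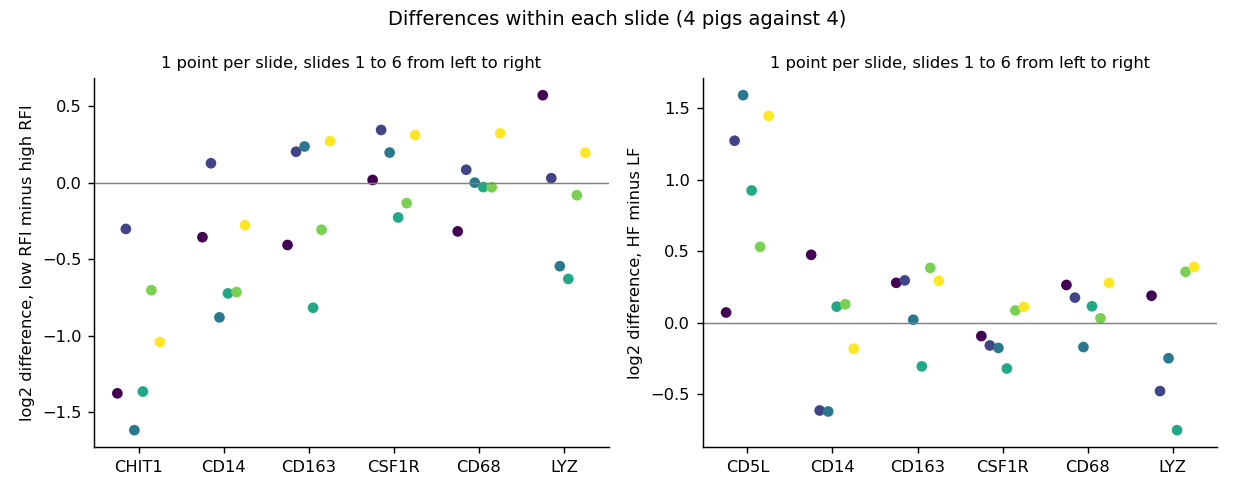
Differences within each of the 6 slides on the log2 scale, 4 pigs against 4, for the line (left, low RFI minus high RFI) and the diet (right, HF minus LF). Each point is a slide. CHIT1 is below 0 on every slide for the line and CD5L above 0 on every slide for the diet. These genes were chosen for these differences on the same pigs, so that the slides are not separate evidence. CD163, CSF1R, CD68 and LYZ lie on both sides of 0 in each panel.

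The other genes of the lineage were read from lists of known genes, described by counts. Of 21 monocyte receptors, 15 were measured, and 3, CD14 included, were called lower and 0 higher in low RFI pigs, beside 1.64% and 1.65% of all genes. Their median line difference was -0.08 with 11 of 15 below 0, against a median of 0.03 over all genes. This list holds genes that the study itself reported as lower in low RFI pigs on these samples. Its count and median are therefore not independent evidence of a direction. Beside CD14, the 2 called were CCR1, a chemokine receptor, with -0.42 (SE 0.10, adjusted P-value 0.0086), and FCGR2B, an inhibitory receptor for antibodies that B cells also carry, with -0.25 (SE 0.07, adjusted P-value 0.032). CLEC7A, the receptor for fungal glucans, differed by -0.45 (SE 0.15) with an adjusted P-value of 0.077. For the diet, 0 of the 15 had an unadjusted P-value under 0.05 by limma, beside 1.94% of all genes, and their median diet difference was 0.007.

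Of a list of lysosomal, secreted and other macrophage genes, 21 of 24 were measured, and none was called for the line other than CHIT1, which was chosen by this difference. The share over all genes was 1.64% called lower and 1.65% called higher. PSAP, the precursor of the saposins, had a line difference of 0.19 (adjusted P-value 0.063), TREM1 -0.32 (adjusted P-value 0.20) and LAMP2 -0.13 (adjusted P-value 0.34). The median line difference of this list was -0.02. For the diet, 2 of 21 had an unadjusted P-value under 0.05, beside 1.94% of all genes, PSAP with -0.15 (P-value 0.018) and CTSB, a cathepsin, with -0.12 (P-value 0.040).

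Of the scavenger receptors and genes of resident macrophages, 12 of 18 were measured and 0 were called for the line. Of all genes, 1.64% were called lower and 1.65% higher in low RFI pigs. C1QA, a subunit of complement C1q, had a line difference of -0.20 (adjusted P-value 0.48), HMOX1, which degrades haem, -0.19 (adjusted P-value 0.50) and SIGLEC1 -0.13 (adjusted P-value 0.69). Only 5 of the 12 were below 0 for the line, and the median line difference of the list was 0.03. For the diet, C1QB had 0.29 at an unadjusted P-value of 0.097 by limma. Apart from CD5L, which was chosen by its diet difference, no gene of the list was under 0.05, beside 1.94% of all genes.

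Of 13 transcription factors of the lineage 7 were measured and 0 were called for the line or the diet. The share over all genes was 1.64% lower and 1.65% higher for the line, and 0% for the diet. CEBPB had a line difference of -0.14 (adjusted P-value 0.53), EGR2 0.11 (adjusted P-value 0.62), NR4A1 0.12 (adjusted P-value 0.70) and SPI1, the factor known as PU.1, -0.07 (adjusted P-value 0.87). CEBPA had a diet difference of 0.11 with an unadjusted P-value of 0.51.

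Genes controlled by the liver X receptors or typical of lipid-laden macrophages bear on both CHIT1 and CD5L, and 14 of 16 were measured. For the line 1 of them was called, beside 1.64% of all genes called lower and 1.65% called higher in low RFI pigs. This was MYLIP, a ubiquitin ligase for the LDL receptor, higher in low RFI pigs by 0.34 (SE 0.07, adjusted P-value 0.0048 by limma). Its line difference was 0.56 under the HF and 0.11 under the LF diet, with an interaction P-value of 0.0048 that does not pass the correction (adjusted P-value 0.88 by limma). ABCA1, the cholesterol exporter, had a line difference of 0.38 (adjusted P-value 0.14), LPCAT3 0.14 (adjusted P-value 0.18) and LGALS3 -0.33 (adjusted P-value 0.19). For LGALS3 it was -0.73 under the HF diet (adjusted P-value 0.037) and 0.07 under the LF diet, with an interaction P-value of 0.0037 (adjusted 0.88 by limma). For the diet, 3 of 14 had an unadjusted P-value under 0.05, beside 1.94% of all genes, namely LPCAT3 with -0.14, SPP1 with 0.21 and FABP4 with 0.54.

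Some markers of other blood cells also passed the test for the line, while 0 were called for the diet, and their part in the differences above was not tested. Over all genes 1.64% were called lower and 1.65% higher in low RFI pigs. For the line, 3 of 5 B cell genes measured were called lower in low RFI pigs, among them MS4A1 by -0.36 (adjusted P-value 0.0012) and BLNK by -0.23 (adjusted P-value 0.022), which the study itself also reported as lower on these samples. The mean of the 5 ran from 1.58 to 2.64 in low RFI HF and from 1.32 to 2.33 in low RFI LF pigs, against 1.96 to 2.52 in high RFI HF and 1.99 to 2.36 in high RFI LF pigs. Of 9 T cell genes 1 was called higher, LCK by 0.21 (adjusted P-value 0.034). Among 7 erythroid genes 1 was called higher, SLC4A1 by 0.26 (adjusted P-value 0.040), with 0.01 under the HF and 0.50 under the LF diet (interaction P-value 0.0021, adjusted 0.88 by limma). For the diet, 2 of the 7 erythroid genes had an unadjusted P-value under 0.05, beside 1.94% of all genes. They were KLF1 with 0.42 (P-value 0.0016 by limma) and EPOR with 0.36 (P-value 0.0068 by limma). The study itself picked both for the diet on these samples. Of 5 NK cell and 4 platelet genes 0 were called for the line. KLRK1 of the NK cell genes had a line difference of 0.28 (adjusted P-value 0.29) and TUBB1 of the platelet genes -0.09 (adjusted P-value 0.70). Members of both lists went either way. Below 0 were 2 of the 5 NK cell genes (median 0.13) and 2 of the 4 platelet genes (median -0.04).

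For the diet, the neutrophil list is given beside CD5L. It holds genes that the study itself picked for the diet on these samples, so that its count and median are not independent evidence of a direction. Of 17 listed genes 13 were measured, all by spots that the authors kept, of which 12 were higher in HF pigs and 7 had an unadjusted P-value under 0.05, with a median diet difference of 0.50, beside 57.4% of all genes higher in HF pigs, 1.94% at that P-value and a median of 0.01, while 0 were called after correction. PGLYRP1, a granule protein that binds bacterial cell walls, differed by 0.63 (SE 0.21, P-value 0.0034) and the antimicrobial peptide PMAP-23 by 1.503 (SE 0.51, P-value 0.0052), both with adjusted P-values of 0.9995 by limma. The mean of the 13 genes ran from 0.35 to 3.55 in low RFI HF and from 0.99 to 3.14 in low RFI LF pigs, against 0.88 to 4.04 in high RFI HF and 0.59 to 2.21 in high RFI LF pigs. For the line, 5 of the 13 were below 0 with a median of 0.09, and CXCR2 was the only one called, lower in low RFI pigs by -0.42 (adjusted P-value 0.039).

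From pig to pig, CD14, CD163, CSF1R and LYZ varied together, and CHIT1 joined CD14 and LYZ. The group mean was subtracted from each pig, and 28 pairs among the 8 genes were tested over 48 pigs, of which 11 had an adjusted permutation P-value under 0.05 for Pearson's r. All 6 pairs among CD14, CD163, CSF1R and LYZ were included. The highest was CD163 with CSF1R, with a Pearson's r of 0.70 and a Spearman's rho of 0.68 (both permutation P-values 1e-05, the smallest that 100000 permutations can give, adjusted 0.00028), and it was 0.68 without the 2 pigs farthest from the median and 0.70 with slide means removed. CD14 and LYZ had an r of 0.56 and a rho of 0.58 (permutation P-values 6e-05 and 3e-05, adjusted 0.00084 and 0.00042).

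CHIT1 followed CD14 with an r of 0.51 and a rho of 0.48 (permutation P-values 0.00024 and 0.00079, adjusted 0.0013 and 0.0037). Without the 2 pigs farthest from the CHIT1 median r was 0.45, and with slide means removed it was 0.63. Within the low RFI line it was 0.71 and within the high RFI line 0.43. CHIT1 with LYZ had an r of 0.36 and a rho of 0.36 (permutation P-values 0.013 and 0.012, both adjusted 0.032). CHIT1 with CD163 had an r of 0.28 that fell to 0.06 without the 2 pigs farthest out (adjusted permutation P-value 0.12), so that it rests on those pigs.

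CHI3L1 followed CD14, with an r of 0.48 and a rho of 0.48 (permutation P-values 0.00041 and 0.00076, adjusted 0.0019 and 0.0037), and CSF1R, with an r of 0.45 and a rho of 0.45 (permutation P-values 0.0013 and 0.0015, adjusted 0.0053 and 0.0062). Without the 2 pigs farthest out these r were 0.40 and 0.42, and with slide means removed 0.39 and 0.53.

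**Figure D4:**
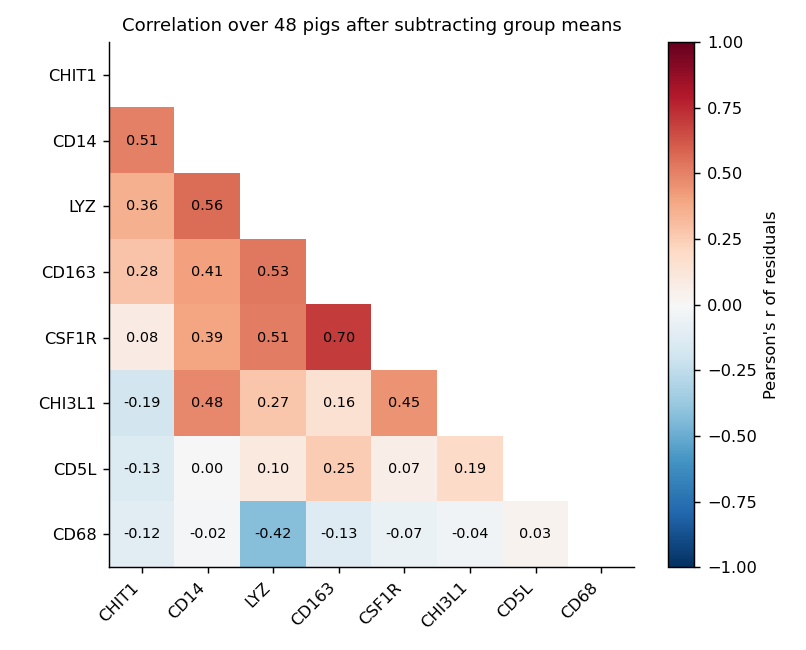
Pearson's r between the 8 genes over 48 pigs after the group means were subtracted, written in each cell and coloured from blue (-1) to red (1). CD14, LYZ, CD163 and CSF1R form the block of positive values, from 0.39 to 0.70, whereas the row of CD5L lies between -0.13 and 0.25 and CD68 is negative with LYZ (-0.42).

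CD5L was not tied to any of the other 7 genes by a correlation that passed the test, with r between -0.13 and 0.25. Its correlation with CD14 was 0.00 (rho 0.03, permutation P-values 0.99 and 0.85). These pooled values cover r of unlike size within the lines. Over the 24 low RFI pigs CD5L had an r of 0.66 with CD163, 0.56 with CSF1R and 0.43 with CD14, and over the 24 high RFI pigs the r were -0.03, -0.21 and -0.36, a difference between the lines that was not tested. CD68 likewise showed no positive r past the test with any of the other genes, and with LYZ it had an r of -0.42 and a rho of -0.42 (permutation P-values 0.0025 and 0.0028, adjusted 0.0088 and 0.0099). That value was -0.50 without the 2 pigs farthest out and -0.39 with slide means removed. The single CD68 probe thus did not follow the other members in these samples. Its target was not checked against a genome here, so that the CD68 values are those of a spot carrying that name.

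The 8 genes were also set against the mean of each of the 11 lists of other genes, a comparison added after the data were seen. The members themselves were left out of the lists, and of the 88 relations 25 had an adjusted permutation P-value under 0.05. CHIT1 passed with 1 list, the monocyte receptors, with an r of 0.52 and a rho of 0.47 (permutation P-values 0.00018 and 0.001, adjusted 0.00093 and 0.005), with 0.41 without the 2 pigs farthest out. CD14 with the same list had an r of 0.70 and a rho of 0.73 (both adjusted 0.00015 by permutation). CD5L had its highest correlation with the neutrophil list, an r of 0.83 and a rho of 0.77 (both permutation P-values 1e-05, adjusted 0.00015), with 0.77 without the 2 pigs farthest out and 0.87 with slide means removed. CD5L and genes of this list were picked for the diet on these same pigs, so that their correlation need not be independent of that choice. CD5L also followed the liver X receptor and lipid-laden macrophage genes, with an r of 0.63 and a rho of 0.59 (adjusted permutation P-values 0.00015 and 0.00044), and the scavenger and resident macrophage genes, with 0.51 and 0.53 (adjusted 0.00093 and 0.00078). Without the 2 pigs farthest out these r were 0.56 and 0.59. The liver X receptor list includes FABP4, which alone had an r of 0.90 with CD5L, and the list without FABP4 was not tested. With the monocyte receptors CD5L had an r of 0.12 and a rho of 0.10 (permutation P-values 0.43 and 0.48). CD68 had its highest with the erythroid list, an r of 0.68 and a rho of 0.69 (both permutation P-values 1e-05, adjusted 0.00015), with 0.66 without the 2 pigs farthest out and 0.80 with slide means removed. CD68 also followed 3 lists of its own lineage, the monocyte transcription factors with an r of 0.55 and a rho of 0.55 (adjusted permutation P-values 0.00055 and 0.00038), the scavenger and resident macrophage genes with 0.51 and 0.40 (adjusted 0.00093 and 0.02) and the liver X receptor and lipid-laden macrophage genes with 0.45 and 0.43 (adjusted 0.0059 and 0.011). With the monocyte receptors its r was -0.19 and its rho -0.23 (adjusted permutation P-values 0.38 and 0.24). Values of 1 array share its median and its cell mixture.

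**Figure D5:**
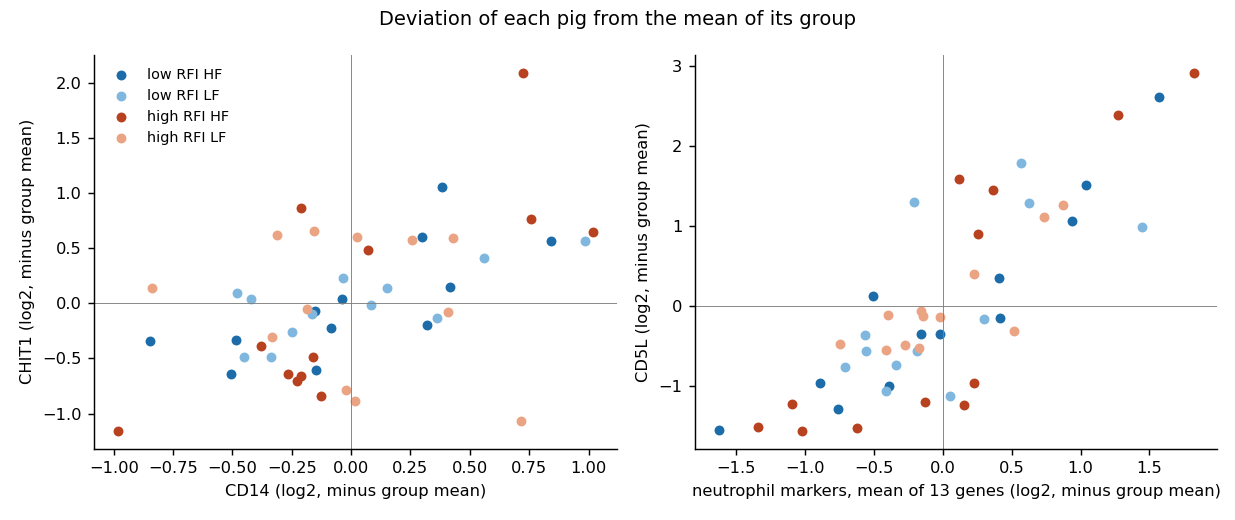
Deviation of each of the 48 pigs from the mean of its group on the log2 scale, CHIT1 against CD14 (left, r 0.51) and CD5L against the mean of 13 neutrophil genes (right, r 0.83), coloured by group. The 3 pigs with the highest CD5L deviations also lie at the upper end of the neutrophil genes. CD5L and genes of the neutrophil list were picked for the diet on these pigs.

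The 5 genes with the most similar pattern over the 48 pigs were listed for each gene by Pearson's r after removal of the group means, as a description with no test. For CHIT1 they included USP11 with 0.70, TLR4 with 0.67, LOC100523265 with 0.64 and TGM3 with 0.62. TLR4 is the receptor for lipopolysaccharide to which CD14 delivers its ligand. For CHI3L1 they were TYROBP with 0.76, MYBPH with 0.75, MARCKS with 0.73, DUS2L with 0.73 and PVRL2 with 0.72, and MYBPH is the gene next to CHI3L1 in the RefSeq table. TYROBP is a signalling adaptor of myeloid and NK cell receptors.

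For CD5L the values were higher, with LOC100522363 at 0.93, BGN at 0.90, FABP4 at 0.90, NUCB2 at 0.89 and NPG4, a protegrin peptide of porcine neutrophils, at 0.88. For CD14 they were SH3BP5 with 0.83, LOC100153946 with 0.83, ZCCHC6 with 0.82, MEGF9 with 0.82 and TLR2, a receptor for bacterial lipopeptides, with 0.81. For CD163 they were CHST15 with 0.77, ADAM-9 with 0.76, MRAS with 0.75, SH3BGRL with 0.74 and GPR110 with 0.74. MRAS with 0.74 and CHST15 with 0.74 were also among the 5 of CSF1R, after SYCP3 with 0.76 and before OLFM1 with 0.73 and TBXAS1 with 0.72.

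For LYZ they included CCPG1 with 0.79, ANXA2 with 0.77, LOC100152491 with 0.76 and TNFRSF1A with 0.76. For CD68 they were RORB with 0.83, PARK2 with 0.82, MMRN2 with 0.82, NPR1 with 0.81 and PCBP4 with 0.81. None of the genes named here for CD68, CD14, CD163, CSF1R or LYZ is on the monocyte or macrophage lists. The median r over all genes lay between -0.08 and 0.06 for the 8 genes.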

How the data were processed

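Whole blood RNA of 48 pigs was hybridized to 1-colour Agilent arrays, and images were read with Feature Extraction 10.7.3.1. The scanner files deposited hold the intensity of each of 60306 non-control spots with its local background and calls. The authors filtered spots on background, diameter, saturation and uniformity in R 3.0.2 and deposited log2 values of 37113 spots, which on 47 arrays equal the log2 median pixel intensity minus the array median within 1e-06, with no background subtracted. The column of high RFI HF replicate 1 repeats 2.71 in 37090 of 37113 entries and was rebuilt from its scanner file in the same way. Gene names are those of the array files, which can be old, and a gene value is the mean of its spots.

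A model with 4 group means was fitted to all genes and to all spots with limma 3.58.1 in R 4.3.3, with the moderated test and BH correction over all of them. Line is low minus high RFI, diet HF minus LF, and the interaction is the diet difference in low minus that in high RFI pigs. It was tested on simulated data. Correlations used residuals and 100000 two-sided permutations in Python 3.11.15 with numpy 2.4.6. The members and lists were chosen with earlier results of these data known. Named genes are the 8 members, the 5 genes nearest to each, and from each list the 4 with the lowest P-values for the line and the 2 for the diet, of which not all genes of other blood cells are printed. Some genes that this rule names are not reported here. Alternatives tried were the methods' analysis of variance, the processed signal over the 75th percentile, normexp (offset 50) with quantile normalization, all spots or only those well above background, the brightest probe, RefSeq names, slide or replicate number as a block, another prior, the column as deposited, and each pig left out. Each array is 1 pig, and the number of arrays limits the precision. Blood cell counts and qPCR were not analysed here.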

Additional observations from a re-analysis of the deposited data

Results flagged for a closer look

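CD14 was noted because its diet difference was not the same in both lines before correction. The interaction had a P-value of 0.0326 by limma and an adjusted P-value of 0.88. CD14 was lower under the HF than the LF diet by 0.41 in low RFI pigs, and the difference was 0.18 the other way in high RFI pigs.

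The 3 CD5L spots that the authors left out carried signal. Probe A_72_P529278 was well above background on 10 of 48 arrays, A_72_P585291 on 17 and O9298 on 38, compared with 1.12% of the readings of 308 negative control spots. Over the pigs, after removal of group means, their r with the CD5L value of the spots kept was 0.53, 0.96 and 0.99.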

How the results depend on the processing

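Each difference of the 8 genes was recomputed under the alternatives. Of the values other than those with 1 pig left out, 286 kept their direction and their side of the threshold. The CD68 line difference reversed to -0.0323 with the processed signal over the 75th percentile. When high RFI HF replicate 1 kept its deposited column, 0 genes were called for the line, because CD14 had -0.50 with an adjusted P-value of 0.074, and 5 differences reversed, CD68 for the line to -0.16, CSF1R for the line to -0.057, CHI3L1 for the diet to -0.042, CSF1R for the diet to 0.051 and the CD163 interaction to -0.21. The repeated value in that column shows the cause. With the replicate block, CD14 kept -0.47 for the line at an adjusted P-value of 0.018 and 1 gene was called, and the block changed no other call. The sample labels do not say whether the numbers pair pigs, and neither the main fit nor the permutations used them as pairs. Of 72 same-numbered pairs, 44 correlated above 0.1. As a hint from the data, the mean correlation was 0.19 for the same number, 0.06 for another number on the same slide and -0.02 for another slide, and 22 of 48 pigs correlated best with their own number. The CHIT1 line difference ran from -1.26 to -0.98 and the CD5L diet difference from 0.78 to 1.37 over the alternatives, the latter highest with the processed signal.

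With each pig left out in turn, 0 to 1 genes were called for the line. CD14 ran from -0.52 to -0.42 (adjusted P-values 0.015 to 0.063) and was no longer called without low RFI HF replicates 5, 6, 7 or 9, low RFI LF replicates 2, 6, 7, 9 or 12, high RFI HF replicates 2, 8 or 12, or high RFI LF replicates 3, 5, 6 or 12. The small differences of CD68 for the line (-0.029 to 0.045), CHI3L1 for the diet (-0.025 to 0.068) and CD163 for the interaction (-0.088 to 0.17) changed sign without some pigs. CD5L had no value where only spots well above background on every array were kept, and CHIT1, CD68 and CSF1R rest on 1 probe each.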
